A study of Mus musculus with 17 samples.

Results

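Claudins are the membrane proteins that form the strands of tight junctions. The 9 claudin genes described here, *Cldn1*, *Cldn3*, *Cldn4*, *Cldn5*, *Cldn6*, *Cldn7*, *Cldn8*, *Cldn12* and *Cldn23*, were taken by symbol from the 55357 genes quantified in sorted mouse β cells, where 35 gene symbols belong to the claudin family. *Cldn8* had been chosen by its low transcript level in *Pcbp2*-deficient cells of this series, so its values in the knockout comparisons are a description and carry no test. The other 8 genes were named with earlier results of these data known. RNA was sequenced from tdTomato+ β cells of islets from male mice, sorted after 72 hours of islet culture in 2.8 mM (low) or 16.7 mM (high) glucose. Control cells, labelled WT, came from tdTomato mice, in which the RIP-Cre transgene switches on the *Rosa26* tdTomato reporter, and gave 3 samples at 2.8 mM and 4 at 16.7 mM. *Pcbp2* βKO cells came from RIP-Cre+; *Pcbp2* fl/fl; tdTomato mice and gave 5 samples at each concentration. Both genotypes thus carry RIP-Cre, a Cre driven by the rat insulin promoter, and the reporter, and the sort kept cells in which Cre had acted. The age of these mice and the number of mice per sample are not given in the sources used here, so p values measure the spread between samples.

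Each claudin spans the membrane 4 times and binds claudins of the same and of the neighbouring cell through its extracellular loops, which seal the space between cells or leave it open to certain ions and water. Tight junctions join the endocrine cells of an islet as well as the epithelial cells of its ducts, and the cytoplasmic tail of most claudins binds scaffold proteins of the ZO family. PCBP2, the protein removed in the knockout, is an RNA-binding protein that recognizes stretches of cytosine in RNA.

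Total estimated counts were between 47385513 and 82419400 per sample, and 22784 genes passed the filter on low counts and were tested. *Pcbp2* was at 62.5 ± 11.4 CPM (counts scaled to a common normalized library size; SD, n = 3) in control cells at 2.8 mM and 40.4 ± 5.27 CPM (SD, n = 4) at 16.7 mM. In *Pcbp2* βKO cells it was at 17.4 ± 1.39 and 7.66 ± 1.68 CPM (SD, n = 5 each), without overlap between genotypes at either concentration. Of the 9 samples at 16.7 mM, 3 stood apart from the other 6 on the first principal component, namely control replicate 4 and *Pcbp2* βKO replicates 4 and 5, at scores of 9.9, 21.4 and 33.2 against 90.9 or more. β cell identity was seen in every sample, with *Ins2* alone at 4.92% to 10.4% of all counts at 2.8 mM and 18.2% to 25.7% at 16.7 mM. That change in the share of 1 gene bears on every value that is scaled to a fixed total, so directions with glucose rest on the TMM scaling of CPM unless TPM is named.

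*Cldn8* (ENSMUSG00000050520) lies on the reverse strand of chromosome 16 of GRCm39, from 88357716 to 88360071, as a single exon with 1 transcript, and no annotated gene overlaps it. *Cldn3*, *Cldn4*, *Cldn5* and *Cldn23* also have their main transcript in 1 exon. *Cldn3* and *Cldn4* are neighbours on chromosome 5, 39279 bp apart. *Cldn7* overlaps *Elp5* on the opposite strand, and *Cldn1*, *Cldn3* and *Cldn12* overlap noncoding RNAs on the opposite strand. Whether reads were assigned by strand is not given in the sources used here, so part of the counts of these 4 genes could come from their partners. Because the knockout removed a poly(C)-binding protein, the 18 nt with the most cytosines were read from the 3′ UTR of the main transcript, from the GENCODE transcripts of GRCm39. They are shown for *Cldn8*, for *Cldn7* as the most abundant claudin, for *Cldn4* as the member with the highest estimate in the knockout, and for *Cldn1* as the member with the most cytosines, with each C in capitals and all other bases in lower case, 5′ to 3′.
Cldn8, chr16:88358613-88358630, reverse strand, exon 1: CCtttCCCtCtaCaCgCC
Cldn7, chr11:69858584-69858601, forward strand, exon 4: CCtCCtggCCaCtCCaCC
Cldn4, chr5:134974384-134974401, reverse strand, exon 1: CCCaCCCaCCtaCCCtaC
Cldn1, chr16:26176866-26176883, reverse strand, exon 4: CtCCtCtCCCCCCaCCCC

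The *Cldn8* window held 10 cytosines, a number reached by 74.1% of the 3′ UTRs of 15262 expressed protein-coding genes, whose median was 11. The *Cldn7*, *Cldn4* and *Cldn1* windows held 11, 12 and 14, reached by 57.1%, 38.1% and 12.1% of these 3′ UTRs. Cytosine made up 17% of the whole *Cldn8* 3′ UTR, against a median of 21.8% over all genes. By these letters, the 3′ UTR of *Cldn8* was therefore not among the C-rich ones, which says nothing about whether PCBP2 binds there.

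Levels were compared between claudins in TPM, which corrects for transcript length. *Cldn7*, a claudin of many epithelia, had the highest mean in each of the 4 groups. In control cells at 2.8 mM, it was at 122 ± 11.9 TPM (SD, n = 3), above every sample of the next gene, *Cldn8*, at 37.0 ± 31.7 TPM. *Cldn12*, *Cldn3* and *Cldn4* followed with 24.1 ± 2.93, 22.0 ± 3.10 and 18.7 ± 10.1 TPM, and the ranges of neighbours from *Cldn8* to *Cldn4* overlapped, so their order is not fixed beyond the spread between samples. *Cldn6* and *Cldn23* formed a lower, overlapping pair at 5.09 ± 1.49 and 4.91 ± 0.81 TPM. *Cldn1*, which is needed for the barrier of the skin, was at 0.40 ± 0.20 TPM. *Cldn5*, the main claudin of endothelial cells, was at or below 5 counts in each of the 17 samples and was not tested. The 9 members held between 96.6% and 99.1% of all claudin TPM in each sample.

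**Figure D1:**
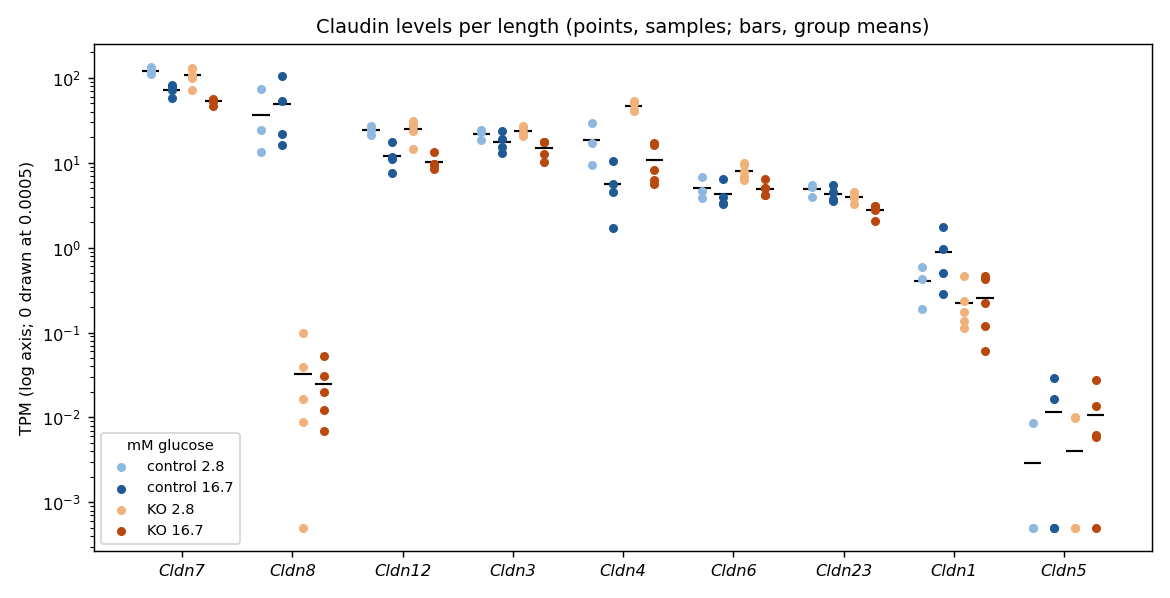
Levels of the 9 claudins in TPM on a log axis. Points are samples, coloured by genotype and mM glucose, short bars are group means, and values of 0 are drawn at 0.0005. *Cldn7* has the highest mean in every group, and *Cldn8* falls from means of 37.0 and 49.1 TPM in control cells to 0.033 and 0.025 TPM in *Pcbp2* βKO cells.

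The place of *Cldn8* in this order differed with genotype. By mean TPM, it ranked second in control cells at both concentrations. It held 14.7% ± 11.3 of all claudin TPM at 2.8 mM (SD, n = 3) and 26.5% ± 16.3 at 16.7 mM (SD, n = 4). Its place varied between control samples. At 2.8 mM, replicate 2 held less *Cldn8* (13.4 TPM) than *Cldn12*, *Cldn3* or *Cldn4*. At 16.7 mM, replicate 3 held more *Cldn8* (106 TPM) than *Cldn7* (81.3 TPM). In *Pcbp2* βKO cells it held 0.015% ± 0.019 and 0.025% ± 0.021 (SD, n = 5 each) and ranked below *Cldn1*. The second place was then taken by *Cldn4* at 2.8 mM, with 47.2 ± 5.70 TPM (SD, n = 5), above every sample of *Cldn12* and below every sample of *Cldn7*. At 16.7 mM it was taken by *Cldn3*, with 15.1 ± 3.41 TPM, whose range overlapped that of *Cldn4* at 10.7 ± 5.58 TPM (SD, n = 5 each).

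*Cldn8*, which in the distal nephron of the kidney forms a barrier to cations and assembles with claudin 4, was abundant in all control samples and nearly absent from all *Pcbp2* βKO samples. In control cells, it was at 59.4, 33.2 and 163 CPM in replicates 1 to 3 at 2.8 mM. At 16.7 mM, replicates 1 to 4 were at 82.5, 231, 418 and 69.5 CPM. In *Pcbp2* βKO cells, replicates 1 to 5 held 8, 18, 3, 1 and 0 counts at 2.8 mM and 2, 14, 6, 9 and 4 counts at 16.7 mM, where control samples held between 2572 and 24886. The genotypes were thus separated by a wide gap, and the lowest control sample exceeded the highest knockout sample 157-fold at 2.8 mM and 309-fold at 16.7 mM.

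The group means of *Cldn8* were 200.2 ± 163 CPM (SD, n = 4) in control and 0.105 ± 0.075 CPM (SD, n = 5) in *Pcbp2* βKO cells at 16.7 mM, a ratio of 1913. At 2.8 mM they were 85.3 ± 68.8 CPM (SD, n = 3) and 0.070 ± 0.086 CPM (SD, n = 5), a ratio of 1220. The fitted log2 fold changes were -10.89 and -10.21, and their size depends on how few counts the knockout samples held. With any 1 sample left out, they remained between -11.33 and -10.24 at 16.7 mM and between -11.18 and -9.33 at 2.8 mM. They were smaller with limma on log2 TPM, where the pseudocount bounds them. At 16.7 and 2.8 mM they were -8.24 and -7.82 with a pseudocount of 0.1, and -5.24 and -4.87 with a pseudocount of 1. For comparison, *Pcbp2* itself, of which part of the transcript remains in the sorted cells, had log2 fold changes of -2.40 and -1.84. In bulk RNA, fewer cells that express a gene and less RNA per cell cannot be told apart.

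**Figure D2:**
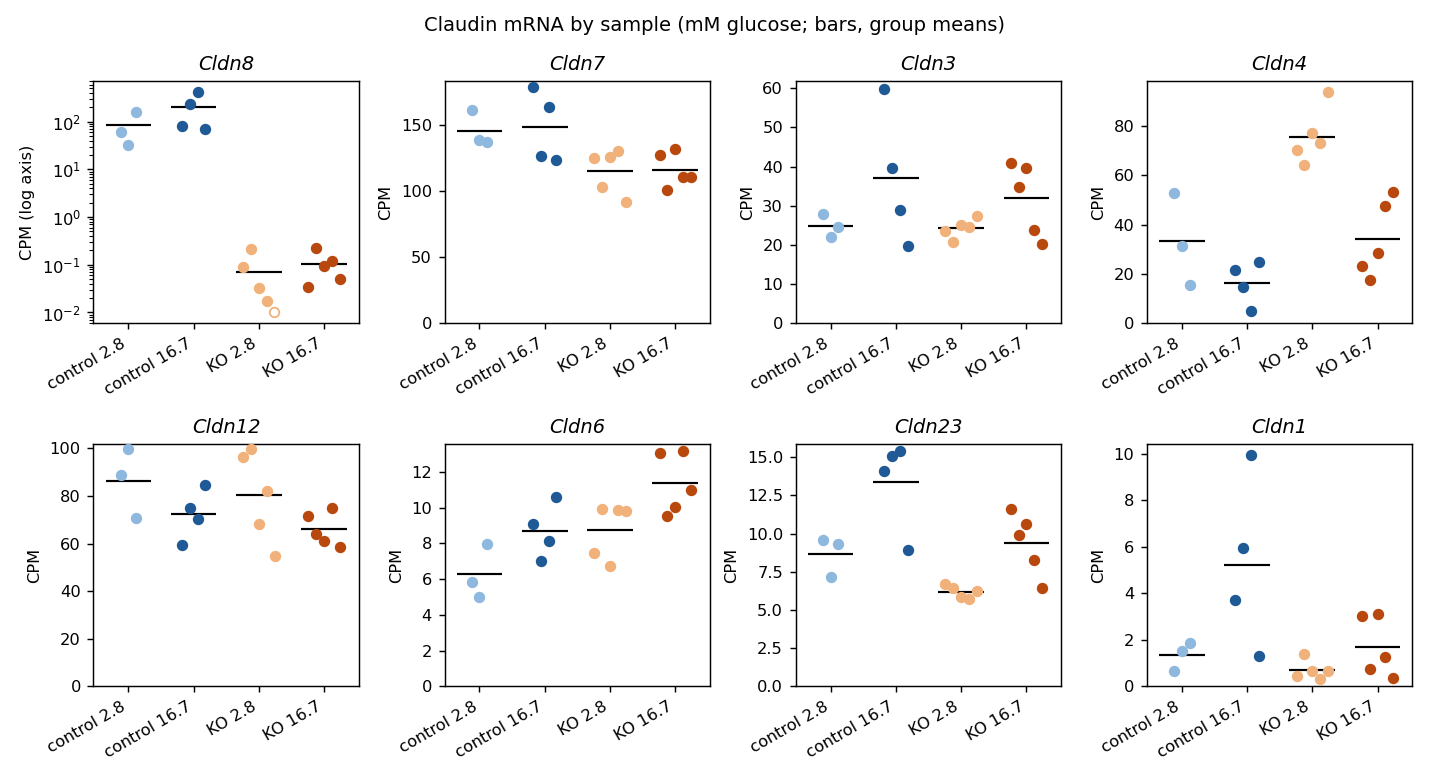
CPM of the 8 members that were tested, by sample, with genotype and mM glucose on the x axis and bars for group means. *Cldn8* is on a log axis, with its 1 sample at 0 as an open circle at 0.01, and the other genes are on linear axes from 0. Only *Cldn8* shows an empty range between genotypes at both concentrations.

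Among the 7 other members tested, none was called in *Pcbp2* βKO against control cells at 16.7 mM or at 2.8 mM. A call is an adjusted p under 0.05 with a fold change over 1.5 by edgeR's quasi-likelihood test. Over all tested genes, 1.71% were called at 16.7 mM and 2.04% at 2.8 mM. At each concentration 4 of the 7 had an unadjusted p under 0.05, and DESeq2 called none of them. These were *Cldn1*, *Cldn4*, *Cldn7* and *Cldn23* at 16.7 mM, and *Cldn4*, *Cldn6*, *Cldn7* and *Cldn23* at 2.8 mM. The share of all tested genes under that p is not given here. Counts at an unadjusted p, here and below, therefore have no background to be set against. Without control replicate 4 at 16.7 mM, 1 of the samples that stood apart, *Cldn23* was called lower at 16.7 mM (log2 fold change -0.68, adjusted p = 0.0488).

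*Cldn4*, a sealing claudin of simple epithelia and a receptor of *Clostridium perfringens* enterotoxin, had higher means in *Pcbp2* βKO cells at both concentrations. At 2.8 mM, control samples were at 52.9, 31.5 and 15.7 CPM and *Pcbp2* βKO samples at 70.1, 64.0, 76.8, 73.2 and 93.6 CPM. At 16.7 mM, the control samples were at 21.5, 14.9, 5.06 and 24.8 CPM and the *Pcbp2* βKO samples at 23.3, 17.6, 28.5, 47.6 and 53.1 CPM. The groups did not overlap at 2.8 mM and overlapped at 16.7 mM, where the 2 highest samples, *Pcbp2* βKO replicates 4 and 5, were among the 3 that stood apart on the first principal component. Without these 3 samples the log2 fold change at 16.7 mM was 0.73 (SE 0.43, adjusted p = 0.515). With all samples, the log2 fold changes at 2.8 and 16.7 mM were 1.18 (SE 0.45, adjusted p = 0.241) and 1.04 (SE 0.41, adjusted p = 0.283), short of a call at either concentration. All alternative settings gave positive values, from 0.84 to 1.68 with a sample left out at 2.8 mM and from 0.74 to 1.29 at 16.7 mM.

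*Cldn7* and *Cldn23* had lower means in *Pcbp2* βKO cells. *Cldn7* was at 137 to 161 CPM in control cells at 2.8 mM and at 92.2 to 131 CPM in *Pcbp2* βKO cells (log2 fold change -0.34, SE 0.15, adjusted p = 0.343). At 16.7 mM, its ranges of 124 to 179 and 101 to 132 CPM overlapped (log2 fold change -0.35, SE 0.14, adjusted p = 0.291). *Cldn23*, a claudin whose role is less well described, was at 7.13 to 9.57 CPM in control and 5.72 to 6.71 CPM in *Pcbp2* βKO cells at 2.8 mM (log2 fold change -0.49, SE 0.21, adjusted p = 0.310). At 16.7 mM the ranges were 8.92 to 15.4 and 6.46 to 11.6 CPM. At 2.8 mM, 3 of the 7 claudins, *Cldn4*, *Cldn7* and *Cldn23*, thus had groups that did not overlap, as 10.9% of all tested genes did, and at 16.7 mM none of them, against 4.49% of all tested genes.

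*Cldn1* was at 1.29 to 9.96 CPM in control and 0.36 to 3.11 CPM in *Pcbp2* βKO cells at 16.7 mM, with a log2 fold change of -1.63 (SE 0.61, adjusted p = 0.256). *Cldn6*, best known from embryonic epithelia, had log2 fold changes of 0.38 (SE 0.19) and 0.48 (SE 0.21) at 16.7 mM and 2.8 mM. *Cldn3*, like *Cldn4* a sealing claudin, and *Cldn12*, which lacks the usual ZO-binding tail motif, had estimates between -0.22 and -0.03. Their signs at 2.8 mM turned to positive values near 0 under several settings, for *Cldn12* for example 0.01 with scaling to total counts.

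**Figure D3:**
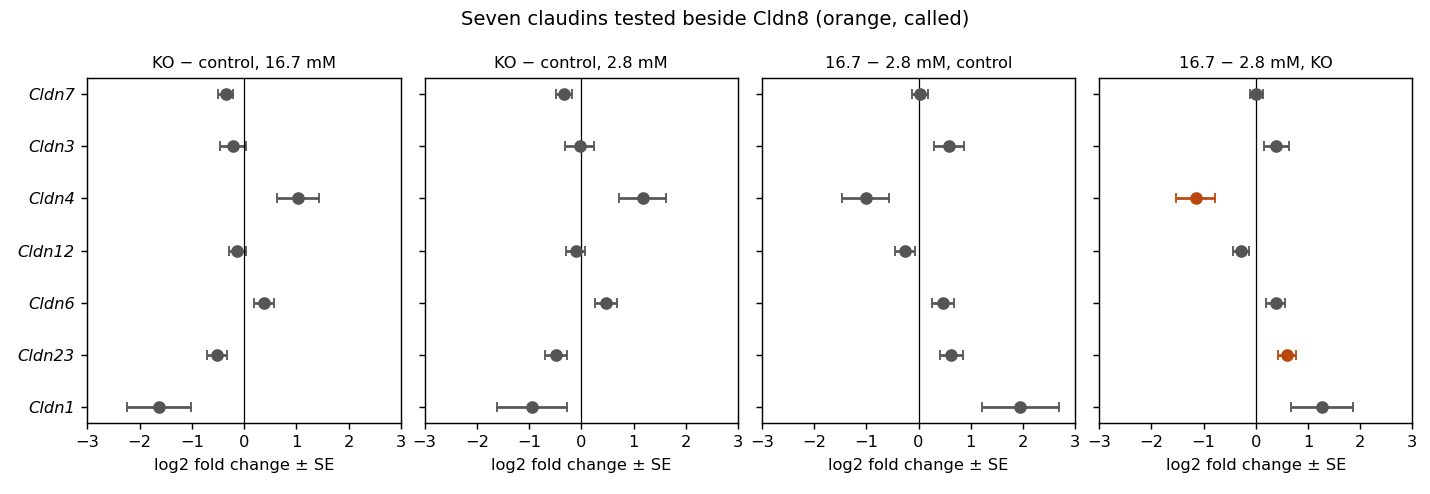
Log2 fold changes ± SE of the 7 members tested beside *Cldn8*, in 4 comparisons from the same edgeR fit of 17 samples. Orange marks calls. *Cldn4* is right of 0 in both knockout panels at 1.04 and 1.18 without being called, and left of 0 in both glucose panels, of which only that of *Pcbp2* βKO cells (-1.15) is called; *Cldn23*, the other call, is right of 0 on this scale and left of 0 in TPM (-0.48).

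High glucose in control cells gave no call among the 8 members tested, against 13.8% of all tested genes. Unadjusted p values were under 0.05 for 4 of them, *Cldn1*, *Cldn4*, *Cldn6* and *Cldn23*, and DESeq2 called 2, *Cldn1* and *Cldn23*, higher. The count depended on the pairing of the control samples, whose same-numbered replicates deviated together. A block of replicate number gave same-numbered samples of all 4 groups 1 shared effect, although samples of different genotypes were not taken as paired. With this block and TMM scaling, 4 members were called. *Cldn1* (log2 fold change 2.11, adjusted p = 0.0205), *Cldn8* (1.39, adjusted p = 0.0375) and *Cldn23* (0.71, adjusted p = 0.0113) were higher, and *Cldn4* (-1.20, adjusted p = 0.0294) was lower. With the block among the control samples alone, *Cldn3* was also called, at 0.73 (adjusted p = 0.0409), and control replicate 4 was alone in its block.

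In CPM after TMM scaling, the same-numbered control samples show these directions in each of the 3 pairs. *Cldn1* was 3.91 to 5.61 times as high at 16.7 mM, *Cldn8* 1.39 to 6.96 times and *Cldn23* 1.47 to 2.11 times. *Cldn3* was 1.18 to 2.15 times as high. *Cldn4* was lower in each pair, at 0.32 to 0.47 of its level at 2.8 mM. Control replicate 4 at 16.7 mM, which has no partner, is in none of these pairs. It was within the range at 2.8 mM for *Cldn1* (1.29 CPM), *Cldn4* (24.8), *Cldn8* (69.5) and *Cldn23* (8.92). For *Cldn3*, at 19.8 CPM, it was below that range. In TPM, *Cldn1* was higher and *Cldn4* lower in each of the 3 pairs, *Cldn8* was higher in 2, and *Cldn3* and *Cldn23* were higher in 1 and lower in 2. Without the block, the log2 fold change of *Cldn8* was 1.23 (SE 0.62, adjusted p = 0.198), and its 4 samples at 16.7 mM spread from 69.5 to 418 CPM, overlapping those at 2.8 mM.

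In *Pcbp2* βKO cells, *Cldn4* was called lower in high glucose and *Cldn23* higher, 2 of the 8 members tested, where 23.8% of all tested genes were called. *Cldn4* was at 64.0 to 93.6 CPM at 2.8 mM and 17.6 to 53.1 CPM at 16.7 mM, without overlap, as 21.6% of all tested genes, a log2 fold change of -1.15 (SE 0.38, adjusted p = 0.0272). It was lower in each of 5 same-numbered pairs and kept its direction on every scale, with a log2 fold change of -2.28 in TPM with a pseudocount of 0.1. *Cldn23* was at 5.72 to 6.71 and 6.46 to 11.6 CPM, with a log2 fold change of 0.60 (SE 0.18, adjusted p = 0.0172), and its direction turned on the TPM scale, where the value was -0.48 with a pseudocount of 0.1. *Cldn8* remained at 0 to 18 counts at both concentrations (log2 fold change 0.55, SE 1.02, adjusted p = 0.744). Without replicate 1, 2 or 3 of the *Pcbp2* βKO cells at 16.7 mM no member was called, and without replicate 3, 4 or 5 at 2.8 mM 1 was. Without the 3 samples that stood apart 4 were called, *Cldn4* lower and *Cldn1*, *Cldn3* and *Cldn23* higher. With the replicate number as a block, *Cldn4* alone was called (log2 fold change -1.26, adjusted p = 0.00498), and *Cldn23* fell short of the fold threshold (0.57).

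The direction with glucose depended on the scaling for several members. The TMM scaling used here put the median log2 fold change of all genes at 0.04 in control and 0.01 in *Pcbp2* βKO cells, whereas with TPM and a pseudocount of 0.1 it was -0.56 and -0.71. On that TPM scale 442 genes were called higher and 8460 lower with glucose in control cells, compared with 1629 and 1524 on the scale used here. *Cldn3*, *Cldn6*, *Cldn7* and *Cldn23* changed sign between these scales in both genotypes. On the TPM scale in control cells *Cldn4*, *Cldn7* and *Cldn12* were called lower, at log2 fold changes of -1.83, -0.75 and -1.06, of which those of *Cldn4* and *Cldn12* were also negative with TMM (-1.01 and -0.26). The difference between the glucose responses of the genotypes, tested as an interaction, gave no call among the 7 members other than *Cldn8*, no unadjusted p under 0.05 and no call by DESeq2, against 0.00439% of all genes.

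Several claudins are also expressed by other cells of the islet and pancreas, so marker genes of those cells were set beside them. The 8 ductal markers together were at 518 to 587 CPM in control and 487 to 610 CPM in *Pcbp2* βKO cells at 2.8 mM, and at 459 to 1228 and 425 to 641 CPM at 16.7 mM. *Krt7*, a keratin, was at 339 to 557 CPM and made up the larger part of this sum in every sample of the other 3 groups, while in control cells at 16.7 mM *Spp1*, the secreted protein osteopontin, reached 799 CPM. *Spp1* was at 13.2 to 114 and 46.5 to 799 CPM in control cells at 2.8 and 16.7 mM, and at 6.67 to 83.2 and 12.2 to 142 CPM in *Pcbp2* βKO cells. It was not called by edgeR in any comparison (log2 fold change with glucose in control cells 2.79, with the knockout at 16.7 mM -2.57), and DESeq2 called it higher with glucose in control cells. At 16.7 mM, control replicate 4 and *Pcbp2* βKO replicate 5 had the lowest ductal sums of their groups. Both were among the 3 samples that stood apart on the first principal component. They were also the lowest of their groups for *Cldn3* (19.8 and 20.3 CPM) and *Cldn23* (8.92 and 6.46 CPM). After removal of group means, Pearson r of *Cldn3* and *Cldn23* with the ductal sum was 0.67 and 0.63 over the 17 samples. With the sum of 10 β cell identity genes it was 0.83 and 0.69. That sum includes *Ins2*, whose share of all counts differed between samples, so r with it need not measure β cell purity. Other claudins and marker sums gave values as large, such as 0.72 for *Cldn6* with 8 acinar markers. For *Cldn23* with the PP cell markers *Ppy* and *Pyy* it was -0.65. The part of ductal cells in the *Cldn3* and *Cldn23* levels was not tested. The ductal keratin *Krt19*, *Sox9* and *Muc1* did not exceed 2.17, 1.07 and 0.59 CPM in any sample. *Cftr*, a chloride channel of ducts, was at 1.21 to 10.3 CPM in control and 0 to 0.14 CPM in *Pcbp2* βKO samples. It was the only ductal marker that edgeR called with genotype, and DESeq2 also called *Muc1* at 2.8 mM. The 8 endothelial markers summed to 4.51 to 8.75 CPM, with *Cdh5* at 0.14 CPM or less, beside a *Cldn5* at or near 0.

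The hormone genes of other islet cells moved in the same direction as *Cldn4* at 2.8 mM. The 2 PP cell markers *Ppy* and *Pyy* summed to 1111 to 1208 CPM in control and 1431 to 7425 CPM in *Pcbp2* βKO cells at 2.8 mM. They were at 368 to 999 and 470 to 1456 CPM at 16.7 mM. The 4 delta cell markers were at 251 to 391 and 481 to 1320 CPM at 2.8 mM, and the 6 alpha cell markers at 691 to 2624 and 1570 to 9439 CPM. None of the 2 PP, 4 delta and 5 alpha markers tested was called by edgeR at 2.8 mM, 2 of each list had an unadjusted p under 0.05, and DESeq2 called *Ppy* and *Pyy*. After removal of group means, Pearson r of *Cldn4* with the PP, delta and alpha sums was 0.54, 0.46 and 0.11 over the 17 samples. The part of these cells in the *Cldn4* level was not tested.

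The 10 genes whose log2 CPM followed that of *Cldn8* most closely over the 17 samples, among 10013 tested genes with a mean of at least 5 CPM, had Pearson r between 0.948 and 0.982. Since the samples form a control and a knockout cluster, r mostly restates that difference, and within the 7 control samples it was between 0.111 and 0.913. All 10 had lower fitted levels in *Pcbp2* βKO cells, as the choice by likeness to *Cldn8* fixed. In the order of their r, they were *Dnah8*, *Crispld2*, *Kcnj5*, *Sftpd*, *Lrrc55*, *Pde2a*, *Gbp8*, *Tnfrsf11b*, *Dipk1a* and *Tmem181b-ps*. *Dnah8*, a dynein heavy chain of cilia, had the highest r both over all samples (0.982) and among control samples (0.913). Its mean was 69.1 CPM in control and 1.47 CPM in *Pcbp2* βKO cells at 16.7 mM.

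*Crispld2*, which encodes a secreted protein, had means of 82.7 and 0.021 CPM at 16.7 mM, and *Sftpd*, surfactant protein D, 186 and 0.177 CPM. The potassium channel gene *Kcnj5* had means of 13.6 and 0.316 CPM, and *Lrrc55*, an auxiliary subunit of large-conductance potassium channels, 50.6 and 0.109 CPM. *Tnfrsf11b*, the decoy receptor osteoprotegerin, was at 90.3 and 5.36 CPM. Among the control samples at 16.7 mM, replicate 3 held the highest value of *Cldn8* and of 9 of these 10 genes, all but *Tmem181b-ps*. *Tmem181b-ps*, a pseudogene that can share reads with its parent gene, was the last of the 10, with a log2 fold change of -0.87 and r of 0.111 among control samples.

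**Figure D4:**
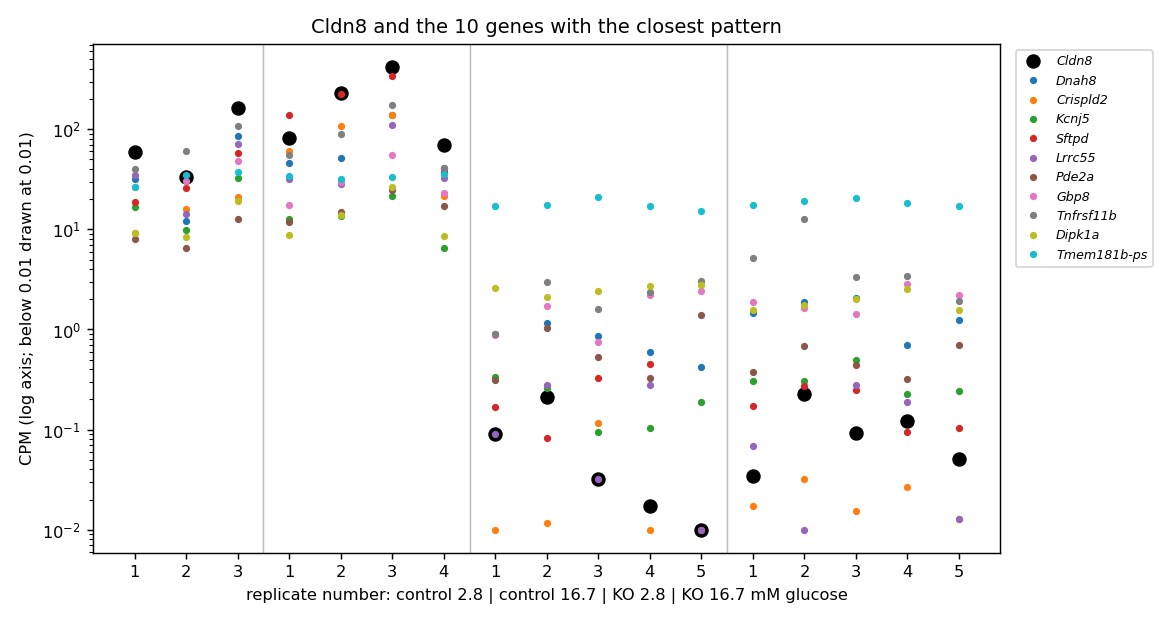
CPM of *Cldn8* (large black points) and of the 10 genes with the highest Pearson r to it, on a log axis, for each of the 17 samples by group and replicate number. Values below 0.01 are drawn at 0.01. Control samples of *Cldn8* are at 33.2 to 418 CPM and knockout samples at 0 to 0.225 CPM, and *Tmem181b-ps* shows the smallest step among the 10.

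Among these genes, *Gbp8* and *Tnfrsf11b* belong to a list of 13 targets of prolactin and growth hormone signalling in β cells. The list was written after results of these data had been seen and is not independent evidence of its direction. The counts, medians and p values that follow therefore describe the listed genes and are no test of the list. Of its 13 genes, 11 were called lower in *Pcbp2* βKO cells at 16.7 mM, as were 1.42% of all tested genes, and 10 at 2.8 mM, as were 1.78%. None was called higher by edgeR or DESeq2, and the median log2 fold changes were -2.58 and -3.32, against 0.01 and 0.03 over all genes. *Tph1*, which makes serotonin from tryptophan, was at 34.5 to 661 CPM in control and 0.013 to 0.883 CPM in *Pcbp2* βKO cells at 16.7 mM (log2 fold change -9.32, SE 0.80, adjusted p = 1.89e-06). *Cish* and *Socs2*, feedback inhibitors of cytokine receptors, had log2 fold changes of -3.34 and -1.68, and *Prlr*, the prolactin receptor, -1.43 (adjusted p = 0.0199). edgeR did not call *Ehhadh* and *Wipi1* at either concentration or *Lonrf3* at 2.8 mM. DESeq2 called 12 of the 13 at each, all but *Ehhadh*, and edgeR with the replicate block called *Wipi1* at 16.7 mM.

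**Figure D5:**
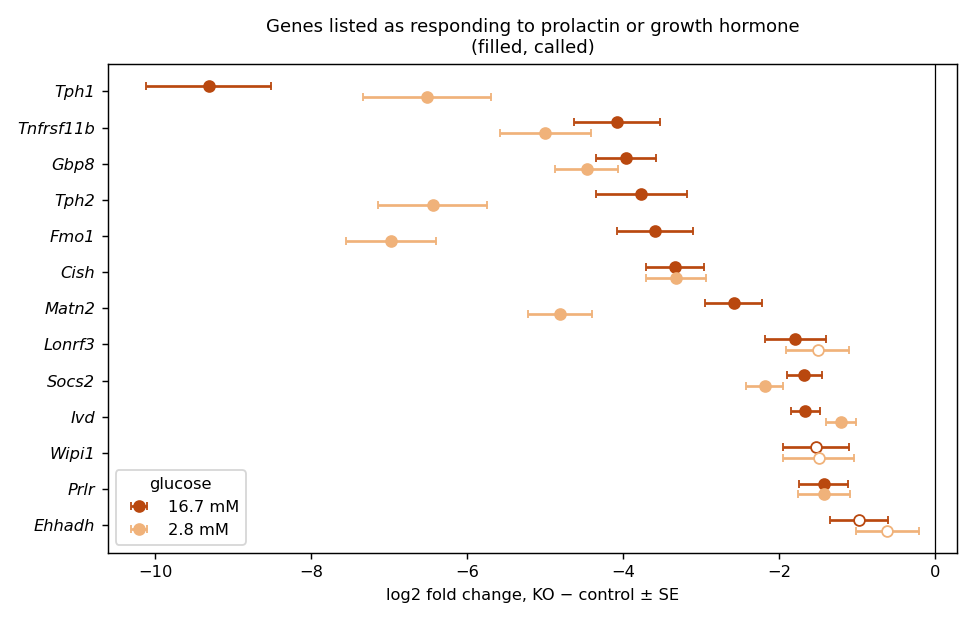
Log2 fold changes ± SE of *Pcbp2* βKO against control cells at 16.7 mM and 2.8 mM for the 13 listed targets of prolactin and growth hormone signalling. Filled points were called. The list was written after results of these data had been seen, so its direction is a description. All 26 estimates are below 0, from -9.32 for *Tph1* to -0.61 for *Ehhadh*.

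Of the 26 other claudin symbols in the data, 5 passed the filter. *Cldn2*, a pore for cations and water, held 31, 62 and 61 counts in control and 0, 12, 3, 0 and 4 counts in *Pcbp2* βKO samples at 2.8 mM and was called lower (log2 fold change -3.74, adjusted p = 0.0366). At 16.7 mM its counts of 112, 527, 237 and 44 overlapped those of 96, 233, 51, 65 and 38, and the interaction was not called. *Cldn2* was called higher with glucose in control (log2 fold change 2.74) and in *Pcbp2* βKO cells (5.04). In *Pcbp2* βKO cells, *Cldn11* was also called higher (3.03) and *Cldn9* lower (-1.53). The *Cldn11* counts there, 54, 7, 37, 13 and 30 at 2.8 mM and 280, 55, 447, 26 and 24 at 16.7 mM, overlapped. *Cldn34c1* was lower with glucose in control cells (-1.16). These 5 directions, after TMM scaling, were the same in mean TPM. None of the 5 was called with the knockout at 16.7 mM, 1 had an unadjusted p under 0.05, and DESeq2 called none. At 2.8 mM 1 of the 5 was called, against 2.04% of all tested genes. With glucose in control cells 1 was called higher and 1 lower, against 13.8% of all tested genes. In *Pcbp2* βKO cells 2 were called higher and 1 lower, against 23.8%. The 21 claudins not tested held at most 13 counts in a sample.

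Of 26 tight junction genes, among them *Ocln*, *Tjp1* and *F11r*, edgeR called none in *Pcbp2* βKO cells at 16.7 mM and 2 at 2.8 mM, where 1.71% and 2.04% of all tested genes were called. At 16.7 mM 8 had an unadjusted p under 0.05, and DESeq2 called *Igsf5* and *Jam2*. The 2 genes called at 2.8 mM were the same. *Igsf5*, a junctional adhesion molecule also named JAM4, was lower (17.8 to 19.3 against 4.92 to 7.58 CPM, log2 fold change -1.68, adjusted p = 0.00602). *Jam2* was higher (2.03 to 4.54 against 7.03 to 22.5 CPM, log2 fold change 2.05, adjusted p = 0.0261). With glucose, *Igsf5* was called higher in both genotypes, and *Pard6b*, a polarity protein, lower in *Pcbp2* βKO cells (-1.22), after TMM scaling and in the same direction in mean TPM. *Cgn*, the adaptor cingulin, was called higher in both after TMM scaling (0.86 and 0.89), while its mean TPM was 4.56 and 4.48 in control and 5.66 and 4.84 in *Pcbp2* βKO cells. Of the 26 genes, 2 were called higher with glucose in control cells, against 13.8% of all tested genes. In *Pcbp2* βKO cells 2 were called higher and 1 lower, against 23.8%.

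Of 9 tested genes that act on claudin proteins, *St14* alone was called with the knockout, at both concentrations, against 1.71% and 2.04% of all tested genes. *St14* encodes matriptase, a membrane protease that acts on epithelial junctions. It was at 63.2 to 146 CPM in control and 42.6 to 51.7 CPM in *Pcbp2* βKO cells at 16.7 mM (log2 fold change -1.22, SE 0.18, adjusted p = 0.00052), and at 56.4 to 73.9 and 26.8 to 36.2 CPM at 2.8 mM (-1.04, SE 0.19, adjusted p = 0.00396), without overlap at either concentration. *Klhl3*, whose product targets claudin 8 for degradation in the kidney, was not called with the knockout. With glucose in control cells *St14*, *Prss8*, *Lnx1* and *Wnk4* were called higher after TMM scaling (log2 fold changes of 0.78, 1.18, 0.84 and 0.78), 4 of 9 against 13.8% of all tested genes, while the mean TPM of *St14* went from 19.6 to 19.2 and that of *Wnk4* from 5.44 to 5.30. Of 10 adherens and gap junction genes none was called with the knockout, against 1.71% and 2.04% of all tested genes. At 16.7 mM 2 had an unadjusted p under 0.05 and DESeq2 called 2, and at 2.8 mM 4 had one and DESeq2 called none.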

How the data were processed

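RNA of sorted β cells was sequenced in 17 samples. The authors quantified transcripts of GRCm39 with Kallisto (version not given in the sources used here) and deposited, for each of 142376 transcripts, estimated counts, which are not normalized between samples, and TPM, which Kallisto scales to effective transcript length and to a fixed total. Here, estimated counts were summed per gene and rounded. Genes were filtered by filterByExpr and scaled by TMM, and 1 model of 4 group means over 17 samples was fitted with edgeR 4.0.16 (R 4.3.3), using quasi-likelihood F tests and Benjamini-Hochberg adjustment over 22784 genes. Genes were called below an adjusted p of 0.05 when their fold change also exceeded 1.5. DESeq2 1.42.0 and limma 3.58.1 on log2 TPM with pseudocounts of 0.1 and 1 were alternatives. The edgeR, DESeq2 and limma fits were tested on simulated data. The study's model held a batch factor whose levels are not given, and none was used here.

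Replicate numbers came from the labels. Across genes, the residuals of control samples with 1 number had r between 0.123 and 0.258 in 3 pairs, each above 0.1, and every other combination of groups had a pair below 0.1. In *Pcbp2* βKO cells the 5 same-numbered pairs had r between 0.0664 and 0.193. Each was above every pair of unlike numbers, of which the highest was 0.0445, so these samples also deviated together by number. By the limit of 0.1, only the control samples were taken as paired. The main fit held no pairing in either genotype. The replicate block, which gave same-numbered samples of both genotypes 1 shared effect, was an alternative. The members and gene lists were chosen with earlier results of these data known. Named were all 9 members, *Pcbp2*, listed genes called with the knockout, up to 4 per list with the largest change with glucose, and the 10 genes of at least 5 CPM closest to *Cldn8*. Sums over 18 nt windows used GENCODE transcripts of GRCm39, in which 6 of the 9 members had the length used in the files.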

Additional observations from a re-analysis of the deposited data

How the results depend on the processing

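The 25 alternatives included TMM against other size factors, no expression filter, DESeq2, limma on TPM, the replicate block and each sample left out. Under them, no member other than *Cldn8*, whose knockout values carry no test, was called at 2.8 mM, and none by the interaction. Of the members other than *Cldn8*, *Cldn23* alone was called at 16.7 mM, and only without control replicate 4. The mean of *Cldn8* in *Pcbp2* βKO cells at 16.7 mM was 0.0246 in TPM.

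For glucose in control cells, the count of 0 became 2 with total counts, 2 with DESeq2, 3 with limma at either pseudocount, 4 with the replicate block, 5 with the block among control samples only (chosen after seeing the data), 4 without the 3 samples that stood apart, and 0 to 3 with a sample left out (3 without control replicate 4 and 1 without *Pcbp2* βKO replicate 5 at 16.7 mM). For glucose in *Pcbp2* βKO cells, the count of 2 became 1 without the filter, 5 and 4 with limma at pseudocounts of 0.1 and 1, 1 with the replicate block, 4 without the 3 samples, and 0 to 3 with a sample left out. With the block, *Cldn23* fell short of the fold threshold (0.57). In *Pcbp2* βKO cells the block changed no other call with glucose, and it changed no call with the knockout or by the interaction. Over all genes with the knockout, edgeR called 389 genes at 16.7 mM and 464 at 2.8 mM, DESeq2 726 and 835, and limma at 1 190 and 283. The interaction called 1 gene, 34 with DESeq2, 15 without the filter, 13 with the block, 3 with limma at 0.1 and 0 with limma at 1. With glucose in control cells, 3153 genes were called, 4837 with total counts (782 higher), 4775 with the block, and 8902 and 6975 with limma at 0.1 and 1. In *Pcbp2* βKO cells, 5431 were called (3056 higher), and 12449 (656 higher) and 8831 with limma.

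Signs of small changes turned. With glucose in control cells, limma at 0.1 and 1 gave *Cldn3* -0.33 and -0.32, *Cldn6* -0.27 and -0.23, *Cldn7* -0.75 and -0.75, and *Cldn23* -0.19 and -0.16, and *Cldn7* was -0.37 with total counts and -0.0052 without the filter. In *Pcbp2* βKO cells, they gave *Cldn3* -0.68 and -0.65, *Cldn6* -0.67 and -0.58, *Cldn7* -0.99 and -0.98, *Cldn8* -0.058 and -0.011, and *Cldn23* -0.48 and -0.38. Total counts gave *Cldn3* -0.11, *Cldn6* -0.10 and *Cldn7* -0.47 there, and *Cldn7* was -0.006 without the filter. With the knockout at 2.8 mM, *Cldn3* was 0.090 with total counts, 0.11 with limma at either pseudocount and 0.19 with the block, and *Cldn12* 0.012 with total counts and 0.0001 with limma at 1. Leaving out a sample gave ranges of -0.44 to 0.11 for *Cldn3* at 16.7 mM, -0.11 to 0.061 for *Cldn3* and -0.23 to 0.0075 for *Cldn12* at 2.8 mM, and -0.077 to 0.12 and -0.058 to 0.061 for *Cldn7* with glucose in control and *Pcbp2* βKO cells. Total counts and TPM also shift the median of all genes, and the cause of the other turns was not tested. Depth limits *Cldn5*, and *Cldn8* in *Pcbp2* βKO cells, which rest on few counts.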

Other observations

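The genes next to *Cldn8* on chromosome 16 were examined after its values had been seen, and their estimated counts are given as a description, with no test. *Krtap13-1*, a keratin-associated protein gene 165678 bp away, held 12, 1 and 10 counts in control samples at 2.8 mM and 27, 68, 101 and 25 at 16.7 mM, and 4 counts in 1 of the *Pcbp2* βKO samples and 0 in the others. *Krtap14*, 262106 bp away, held 0, 0 and 3 counts and 29, 57, 71 and 3 counts in control samples and 0 in all *Pcbp2* βKO samples. *Krtap14* lies within *Krtap15-1*, so reads of the pair may not be told apart. The noncoding RNA *Gm49688*, 33354 bp away, held 1, 4 and 7 counts and 5, 53, 17 and 0 counts in control samples and 0 in all *Pcbp2* βKO samples. *Cldn17*, a claudin known as an anion channel and the claudin nearest to *Cldn8* at 53849 bp, held 0, 4, 2 and 3 counts in control samples at 16.7 mM and 0 in the other 13 samples. *Grik1* and *4930420G21Rik*, which lie across *Cldn8* from the *Krtap* genes, held 47 and 31 counts over the 7 control samples and 106 and 84 over the 10 *Pcbp2* βKO samples.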
